A study of Rattus norvegicus with 24 samples.

Results

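The genes described here encode the enzymes of the citrate cycle, of the pyruvate dehydrogenase complex that feeds it, and of mitochondrial fatty acid oxidation. They were taken by symbol from a list of 36 drawn up with earlier results of these data known, although the rule itself uses no measured value, and 34 of the 36 were found under exactly that symbol among the 21067 genes measured in rat quadriceps femoris muscle. Of the other 2, Idh3b was spelled Idh3B in the gene table and is given separately, and Ogdh was not found under that symbol. A further entry, LOC103693780, carried the description of a listed enzyme. It was tested outside the 34 and its values are not given. The 34 enzymes comprised 4 of the pyruvate dehydrogenase complex, 10 of the citrate cycle and 20 of fatty acid oxidation.

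RNA was sequenced from 24 Sprague-Dawley rats of both sexes, bought at 6 weeks of age, with 1 library per rat and 6 rats in each of 4 groups. The control group was fed normally and did not train. The treadmill group ran on a treadmill at increasing speed for 7 weeks and then once to exhaustion. The catgut 1 group trained in the same way after collagen thread had been embedded under the skin and in the muscle at a set of acupoints, and the catgut 2 group had thread at these acupoints and at Fei Shu in addition. No group had thread embedded without training, and no group had a needle passed without thread, so that embedding was measured on top of training only. Some of the acupoints lie in the hind limb.

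The citrate cycle oxidizes acetyl-CoA in the mitochondrial matrix and hands the electrons to the respiratory chain. Acetyl-CoA reaches it from glucose through pyruvate dehydrogenase, and from fatty acids through a spiral of dehydrogenation, hydration, a second dehydrogenation and thiolytic cleavage, after carnitine has carried the acyl chain across the inner membrane. In skeletal muscle these enzymes are more abundant in slow, oxidative fibres than in fast, glycolytic ones, and endurance training is known to raise them.

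The libraries held between 45945938 and 78278080 counts. The median was 75150847 in control, 60688147 in treadmill, 56332834.5 in catgut 1 and 62100481 in catgut 2. The part of this difference in depth in the results was not tested. Skeletal muscle markers were high in every group, with a summed level of 63358 to 87468 FPKM, a level scaled for transcript length and for the size of the library. Markers of slow fibres (Myh7, Tnnt1, Tnni1, Tnnc1, Myl2 and Myl3, 6 of 6 in the table) differed far more between libraries. Their summed level ran from 31.8 to 1782 FPKM in control (median 212), from 5.99 to 2208 in treadmill (median 914), from 9.82 to 3271 in catgut 1 (median 1543) and from 297 to 4311 in catgut 2 (median 1381). Transcripts typical of hepatocytes summed to 220.1 FPKM in control replicate 2, 338 in treadmill replicate 3 and 25.5 in treadmill replicate 2, against 0.224 to 5.48 in the other libraries. Red blood cell transcripts summed to a median of 505 FPKM in control and 763, 910.2 and 891 in the trained groups in the order named above, and of the 4 table rows of these markers, 4 were higher in treadmill, 3 in catgut 1 and 3 in catgut 2 than in control at an unadjusted p under 0.05 in edgeR. All 6 hepatocyte transcripts were lower in both catgut groups than in treadmill by the same rule, and 5 of 6 were lower than in control. The part of these transcripts in the results below was measured only by leaving out the 3 libraries, and that of red blood cell transcripts was not tested. Of 6 adipocyte markers, Fabp4 was higher in catgut 2, Adipoq and Cidec were lower in catgut 1 and Lep was lower in treadmill than in control at an unadjusted p under 0.05 in edgeR. Their summed level had a median of 417 FPKM in control, 436 in treadmill, 478 in catgut 1 and 597 in catgut 2. Most single markers went the other way. In each trained group against control, 1 of the 6 had a log2 fold change above 0 and 5 had one below 0. The medians over the 6 were -0.85 in treadmill, -1.73 in catgut 1 and -1.01 in catgut 2. The part of the adipocyte markers in the results was not tested. The labels name quadriceps muscle as the tissue, but the RNA in the extraction text is called adipose. A Y-linked transcript, Eif2s3y, was above 1 FPKM in 3 control, 3 treadmill, 3 catgut 1 and 2 catgut 2 libraries. The paper states that males and females were equal in number in each group, from which the catgut 2 count departs. The level of Y-linked transcripts was a covariate in an alternative fit. In bulk RNA, fewer cells of a type and less RNA per cell cannot be told apart.

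Promoters from RefSeq on the GRCr8 build, each covering 250 bases before to 50 bases after the start of the gene, were matched to 30 of the 34 enzymes, all but Idh3a, Acadl, Decr1 and Acaa2. The 7 letters AAGGTCA, to which oestrogen-related receptors bind, were searched on both strands. They were found in 1 of the 30, that of Hadhb, and in 4.61% of 33469 promoters of the same length. The longer form TCAAGGTCA occurred in 0 of the 30 and in 0.433% of all, and the direct repeat of the PPAR family, AGGTCANAGGTCA, in 0 of the 30 and in 0.0538% of all. The 6 letters AGGTCA alone, which is also part of AAGGTCA, occurred in 8 of the 30 and in 16.2% of all, and the GC box GGGCGG, the binding letters of Sp1, in 22 of the 30 and in 33.1% of all. Both of these shorter motifs were added after the results of the first 3 searches had been seen. The promoters of the enzymes held a median of 61% G and C, against 51.7% over all promoters. That of Acadvl held no GGGCGG and that of Cpt2 no AGGTCA. The part of either motif in the levels of these enzymes was not tested. The following lines give, 5′ to 3′ on the strand of the gene, the promoter with the receptor motif (Hadhb, chr6:31907451-31907750, minus strand, the reverse complement of the motif in capitals) and those of the pair of enzymes whose levels moved together most closely, with AGGTCA in capitals for Acadvl (chr10:55236656-55236955, minus strand) and GGGCGG in capitals for Cpt2 (chr5:127910769-127911068, minus strand).
Hadhb: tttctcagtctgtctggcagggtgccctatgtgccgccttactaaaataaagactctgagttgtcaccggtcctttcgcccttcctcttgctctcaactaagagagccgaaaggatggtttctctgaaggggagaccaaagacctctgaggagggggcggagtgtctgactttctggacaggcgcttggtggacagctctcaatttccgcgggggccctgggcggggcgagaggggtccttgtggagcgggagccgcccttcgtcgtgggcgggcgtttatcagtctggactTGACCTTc
Acadvl: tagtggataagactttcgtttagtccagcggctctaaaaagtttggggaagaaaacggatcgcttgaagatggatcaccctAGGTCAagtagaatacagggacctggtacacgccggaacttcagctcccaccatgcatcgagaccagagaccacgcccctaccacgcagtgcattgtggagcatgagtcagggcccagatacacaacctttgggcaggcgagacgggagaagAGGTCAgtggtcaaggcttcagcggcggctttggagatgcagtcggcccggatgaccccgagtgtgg
Cpt2: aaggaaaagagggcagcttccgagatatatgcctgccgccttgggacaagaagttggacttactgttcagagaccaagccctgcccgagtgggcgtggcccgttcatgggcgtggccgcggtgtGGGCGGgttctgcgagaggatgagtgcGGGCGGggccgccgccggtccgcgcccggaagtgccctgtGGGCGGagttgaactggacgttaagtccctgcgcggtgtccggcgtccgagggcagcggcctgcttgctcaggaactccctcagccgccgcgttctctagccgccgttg

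All 34 enzymes passed the filter of a mean of at least 0.1 FPKM and were among the top 10% of the 14772 genes tested by mean FPKM. Mdh2, mitochondrial malate dehydrogenase, was the most abundant with a mean of 802 FPKM over the 24 libraries, followed by Mdh1, its cytosolic counterpart, with 501 and Idh2, the NADP-dependent isocitrate dehydrogenase of mitochondria, with 464. The lowest means were those of Cpt2, carnitine palmitoyltransferase of the inner membrane, with 53.5 FPKM, of Dlat, the acetyltransferase of pyruvate dehydrogenase, with 54.0, and of Decr1, a reductase for unsaturated chains, with 63.2. The coefficient of variation over the 24 libraries was smallest for Suclg1, a succinyl-CoA ligase subunit, at 6.74%, and largest for Acaa2, the thiolase of the spiral, at 34.0%. Treadmill replicate 2 had the lowest value of all libraries for 19 of the 34 enzymes, and catgut 1 replicate 2 and catgut 2 replicate 1 had the highest for 8 each.

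Genes were compared between groups with edgeR's quasi-likelihood test, with Benjamini-Hochberg adjustment across the 14772 genes that passed the filter. In none of the 6 comparisons, and not in the test for any difference among the 4 groups, did an enzyme of the 34 pass an adjusted p of 0.05. The comparisons share libraries with each other, so their results are not independent of one another. The counts that follow use an unadjusted p under 0.05 and are read against the share of all genes called by the same rule.

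The study asked first what training to exhaustion does. Between treadmill and control, 0 of the 34 enzymes were higher at an unadjusted p under 0.05, where 4.03% of all genes were, and 2 were lower, where 5.08% of all genes were. The 2 were Sucla2, the ADP-forming subunit of succinyl-CoA ligase, and Dld, dihydrolipoamide dehydrogenase, which serves both the pyruvate and the 2-oxoglutarate dehydrogenase. None passed an adjusted p of 0.05 in edgeR (0.0542% of all genes did) and limma called 0. DESeq2, which called 112 of the 14772 genes at an adjusted p, 28 of them lower, called 1 enzyme, Sucla2. The median log2 fold change was 0.05 over the 34 enzymes and -0.00 over all genes. Without treadmill replicate 2, in which the slow fibre markers were lowest, 9 enzymes had an unadjusted p under 0.05, 7 higher and 2 lower, and the median was 0.16. The calls over all genes also increased in that fit, from 596 to 900 higher and from 751 to 1207 lower. The median was -0.04 without treadmill replicate 3, -0.02 without control replicate 4, 0.00 without treadmill replicate 4, 0.03 without control replicate 5 or treadmill replicate 5 and 0.12 without control replicate 2. Without the 3 libraries that held hepatocyte transcripts 7 enzymes were called, 6 of them higher.

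The study then asked what embedding adds to training. Between catgut 1 and treadmill, edgeR called 0 enzymes higher and 0 lower at an unadjusted p under 0.05, where 3.44% and 3.49% of all genes were called. None passed the adjusted threshold in edgeR, DESeq2 or limma (0.0474% of all genes in edgeR), DESeq2 called 0 and limma 2 at an unadjusted p. The median log2 fold change was 0.10, with 28 of 34 enzymes above 0, and it was 0.00 without treadmill replicate 2, 0.05 without catgut 1 replicate 2, 0.17 without catgut 1 replicate 3 and 0.19 without treadmill replicate 3. Without treadmill replicate 3 or without catgut 1 replicate 3, 2 enzymes were called. Calls over all genes, in either direction, were 1024 with all libraries, 946 without treadmill replicate 3 and 1010 without catgut 1 replicate 3.

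Between catgut 2 and treadmill, 2 enzymes were higher at an unadjusted p under 0.05, where 5.6% of all genes were, and 0 were lower, where 5.14% were. They were Echs1, the hydratase of the spiral, and Fh, fumarase. None passed an adjusted p of 0.05 in edgeR, DESeq2 or limma (0.237% of all genes in edgeR), while DESeq2 called 5 and limma 8 at an unadjusted p. The median log2 fold change was 0.25, with 30 of 34 above 0, and it was 0.11 without catgut 2 replicate 1 and 0.12 without treadmill replicate 2. Leaving out 1 library at a time gave 8 without treadmill replicate 3, 5 without catgut 2 replicate 4, 4 without treadmill replicate 4, and 1 without treadmill replicate 1, treadmill replicate 2 or catgut 2 replicate 1. Without catgut 2 replicate 6 the count was 0. Calls over all genes, in either direction, were 1587 with all libraries, 1593 without treadmill replicate 3 and 1521 without catgut 2 replicate 6.

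Against control the catgut groups differ by training and embedding together. Between catgut 1 and control, 3 enzymes were higher, Acadl, Acadvl and Idh3g, where 4.78% of all genes were, and 0 were lower, where 5.06% were. None passed an adjusted p of 0.05 in edgeR, DESeq2 or limma (0.0203% of all genes in edgeR), and at an unadjusted p DESeq2 called 7 and limma 4. The median log2 fold change was 0.18, and it was 0.10 without catgut 1 replicate 2. The count was 10 without catgut 1 replicate 3, 7 without control replicate 2, 6 without catgut 1 replicate 6, 2 without any 1 of control replicates 4, 5 and 6 and catgut 1 replicates 1, 2 and 5, and 1 without catgut 1 replicate 4. Calls over all genes, in either direction, were 1454 with all libraries, 1800 without catgut 1 replicate 3 and 1271 without catgut 1 replicate 4.

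The most enzymes were called between catgut 2 and control. Here 12 of the 34 were higher at an unadjusted p under 0.05, where 8.04% of all genes were, and 0 were lower, where 8.4% were. Of the 12, 10 belonged to the 20 enzymes of fatty acid oxidation and 2, Mdh1 and Idh3g, to the 14 of pyruvate dehydrogenase and the citrate cycle. All 20 fatty acid enzymes had a log2 fold change above 0, with a median of 0.35, against 0.14 over the 14 others, 0.26 over all 34 and -0.00 over all genes. All 20 were also above 0 in catgut 1 against control and in catgut 2 against catgut 1. Against treadmill 19 were in catgut 2 and 18 in catgut 1, and 15 were in treadmill against control. None passed an adjusted p of 0.05 in edgeR (0.508% of all genes did) or limma. DESeq2, which called 695 of the 14772 genes at an adjusted p, 372 of them higher, called 3 enzymes, Acadl, Acadvl and Cpt2. By a criterion adapted from the thresholds of the study, here a ratio of group mean FPKM over 1.5 with an unadjusted edgeR p under 0.05, 4 enzymes were higher, Acadvl, Etfb, Cpt2 and Acaa2, where 3.52% of all genes were. The count of 12 was 19 without catgut 2 replicate 4, 8 without control replicate 5 or 6, 6 without control replicate 4 or catgut 2 replicate 6, and 5 without catgut 2 replicate 1. Calls over all genes, in either direction, were 2428 with all libraries, 2992 without catgut 2 replicate 4 and 2018 without catgut 2 replicate 1. The count of 4 was 0 without catgut 2 replicate 1 or 6 and 1 without control replicate 4 or 6, and DESeq2 and limma called 13 and 17 enzymes at an unadjusted p.

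Between catgut 2 and catgut 1, which differ by 1 acupoint, 0 enzymes were higher and 0 lower at an unadjusted p under 0.05 in edgeR, DESeq2 or limma, where 1.87% and 1.39% of all genes were in edgeR. None passed an adjusted p of 0.05 (0.00677% of all genes). The log2 fold changes were above 0 for 32 of the 34, with a median of 0.11. Without catgut 2 replicate 1 they were above 0 for 18 with a median of 0.01, and the median was 0.04 without catgut 1 replicate 3, 0.05 without catgut 2 replicate 6 and 0.17 without catgut 2 replicate 4. In the test for any difference among the 4 groups, 3 enzymes had an unadjusted p under 0.05, Acadl, Sucla2 and Echs1, where 13% of all genes did, and 0 passed the adjusted threshold, where 0.379% did (edgeR, adjusted p = 0.316, 0.33 and 0.376 for the 3). DESeq2 called 4 and limma 7 at an unadjusted p. The count of 3 ranged from 1 to 7 when 1 library was left out, with 7 without catgut 2 replicate 4, 6 without treadmill replicate 3, 5 without control replicate 1 or 2, and 1 without control replicate 5 or 6, treadmill replicate 4 or catgut 2 replicate 1 or 6.

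**Figure D1:**
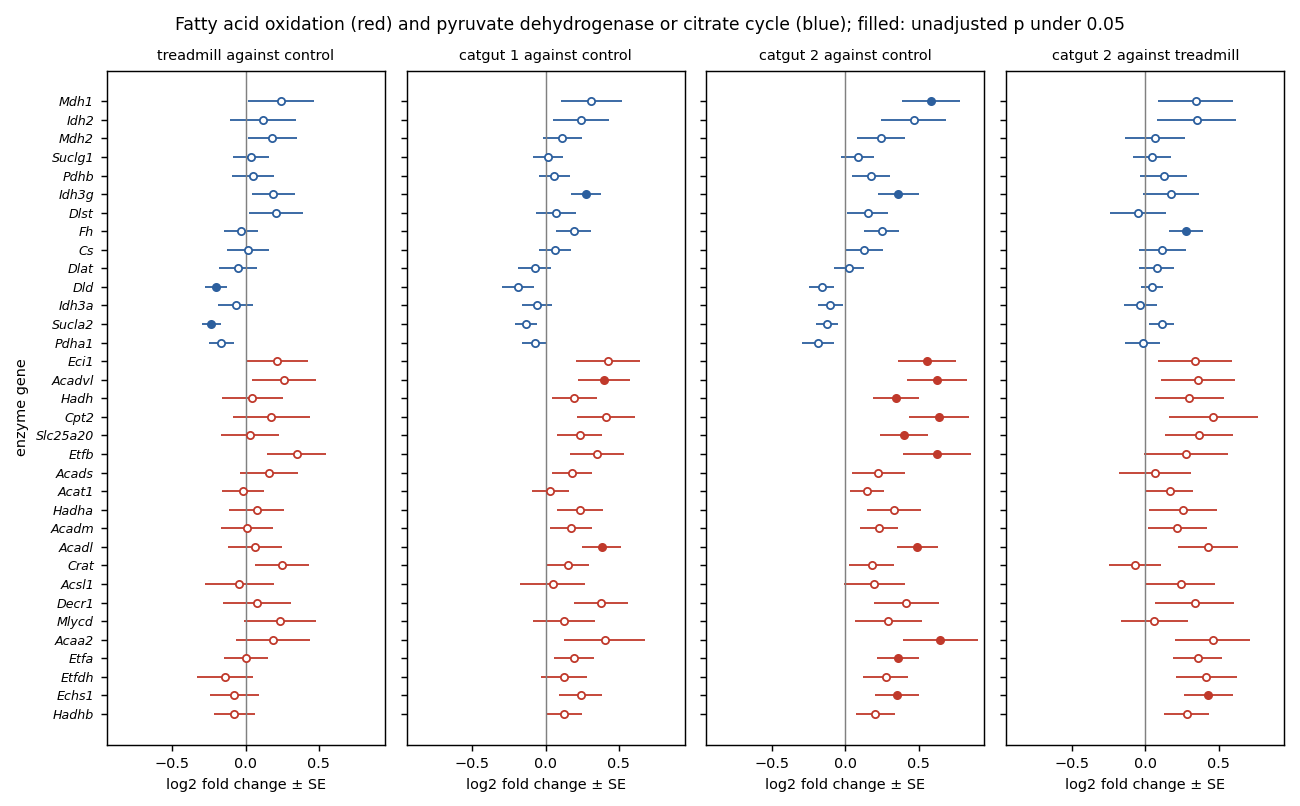
The log2 fold change of each of the 34 enzymes (rows) with its standard error is plotted for 4 comparisons (panels), with fatty acid oxidation in red and pyruvate dehydrogenase and the citrate cycle in blue; filled points have an unadjusted p under 0.05. All 20 red points lie above 0 in catgut 2 against control, where 10 of them are filled, and in catgut 1 against control, where 2 are.

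Within the pyruvate dehydrogenase complex, Dld was measured at 59.1, 73.5 and 87.0 FPKM (lowest, median and highest of 6) in control and at 56.1, 62.1 and 74.1 in treadmill. The groups overlapped, with 1 treadmill library below all controls. EdgeR gave a log2 fold change of -0.20 with a standard error of 0.0745 (edgeR, p = 0.0174, adjusted p = 0.486, two-sided exact permutation p = 0.0455), and its p was above 0.05 without the libraries that held hepatocyte transcripts. The exact permutation p was above 0.05 without any 1 of 10 libraries, all but control replicate 1 and treadmill replicate 2. Dlat was measured at 48.6, 56.3 and 60.8 FPKM in control, 42.9, 54.1 and 57.2 in treadmill, 44.0, 52.1 and 60.8 in catgut 1 and 54.3, 55.9 and 60.2 in catgut 2. Its groups lay on top of each other. Pdha1 was at 137, 158 and 172 FPKM in control and 116, 134 and 164 in treadmill, where 4 of 6 libraries lay below all controls (exact permutation p = 0.0368, edgeR p = 0.073). Pdha1 and Pdhb, the subunits of the catalytic pyruvate dehydrogenase component, had no unadjusted p under 0.05 in edgeR in any comparison.

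In the citrate cycle, Sucla2 stood at 182, 197 and 228 FPKM in control, 149, 169 and 188 in treadmill, 138, 188 and 212 in catgut 1 and 152, 182 and 225 in catgut 2. Of the 6 treadmill libraries, 5 lay below all controls, as did 2 of 6 in catgut 1 and 3 of 6 in catgut 2. In treadmill against control its log2 fold change was -0.24 with a standard error of 0.0651 (edgeR, p = 0.00325, adjusted p = 0.377, exact permutation p = 0.00433). Sucla2 kept an unadjusted p under 0.05 in all 25 alternative fits run. Suclg1, the partner subunit, had its smallest unadjusted p of 0.48 in edgeR over the 6 comparisons.

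Fh, which hydrates fumarate to malate, was at 152, 167 and 197 FPKM in control, 155, 168 and 173 in treadmill, 171, 201 and 230.4 in catgut 1 and 178, 211 and 230.1 in catgut 2. All 6 catgut 2 libraries lay above all 6 treadmill libraries, which spanned a narrow range, and such separation with the first group higher was seen for 0.582% of all genes tested. Its log2 fold change in that comparison was 0.28 with a standard error of 0.116 (edgeR, p = 0.0314, adjusted p = 0.402), and the exact permutation p of 0.00216 is the smallest that 6 against 6 libraries allow. The unadjusted p was above 0.05 in 6 of 25 alternative fits. Among them were those without any 1 of treadmill replicates 1 and 2 and catgut 2 replicates 1 and 6. The fit with the slow fibre level as a covariate, described below, was another.

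Idh3g, a regulatory subunit of the NAD-dependent isocitrate dehydrogenase, was at 185, 194 and 204 FPKM in control, 156, 222 and 248 in treadmill, 199, 237 and 275 in catgut 1 and 215, 238 and 318 in catgut 2. All 6 catgut 2 libraries lay above all controls (0.724% of all genes tested separated in this way), and 5 of 6 in catgut 1 did. The log2 fold change was 0.36 with a standard error of 0.143 in catgut 2 against control (edgeR, p = 0.0253, adjusted p = 0.232, exact permutation p = 0.00216). In catgut 1 against control it was 0.28 with a standard error of 0.105 (p = 0.0202, adjusted p = 0.432, exact permutation p = 0.00866). That call was lost in 3 of 25 alternative fits. These were the fit without catgut 1 replicate 4, that with the slow fibre covariate and the single fit over the 4 groups. Idh3B, the beta subunit that the list holds under another spelling, was at 206, 214 and 219 FPKM in control and 243, 263 and 309 in catgut 2, again without overlap (edgeR log2 fold change 0.34, adjusted p = 0.158, exact permutation p = 0.00216). Idh3a, the catalytic subunit of the same enzyme, had medians of 199.8 FPKM in control and 188 in catgut 2, and a smallest edgeR unadjusted p of 0.257 over the 6 comparisons.

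Mdh1, which belongs to the malate-aspartate shuttle in the cytosol, was at 335, 386 and 548 FPKM in control, 249, 479.7 and 618 in treadmill, 351, 474 and 776 in catgut 1 and 423, 634 and 754 in catgut 2. In catgut 2, 4 of 6 libraries lay above all controls, and the highest control was replicate 2, which held hepatocyte transcripts and the most slow fibre transcripts of its group. EdgeR gave a log2 fold change against control of 0.59 with a standard error of 0.199 (p = 0.0114, adjusted p = 0.177, exact permutation p = 0.0173). Mdh2 was at 601, 756 and 796 FPKM in control and 664, 823 and 1093 in catgut 2, and Idh2 at 328, 391 and 508 in control and 355, 515 and 771 in catgut 2. Both overlapped between these groups and neither had an unadjusted p under 0.05 in any comparison. Cs, citrate synthase, and Dlst, the succinyltransferase of 2-oxoglutarate dehydrogenase, also had none.

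Among the enzymes that activate fatty acids and carry them inward, Cpt2 was at 38.1, 40.7 and 57.3 FPKM in control, 23.7, 42.8 and 75.6 in treadmill, 40.1, 50.8 and 83.0 in catgut 1 and 43.0, 66.1 and 87.9 in catgut 2. The treadmill libraries spread over the whole range of the controls and beyond it on both sides, and 4 of 6 catgut 2 libraries lay above all controls. In catgut 2 against control Cpt2 had a log2 fold change of 0.64 with a standard error of 0.203 (edgeR, p = 0.00777, adjusted p = 0.162, exact permutation p = 0.013). Slc25a20, the carnitine-acylcarnitine translocase that Cpt2 works beside, had medians of 93.9 FPKM in control and 134 in catgut 2 (edgeR log2 fold change 0.40, adjusted p = 0.252, exact permutation p = 0.0238). Acsl1, which activates long chains, Crat, which acts on short ones, and Mlycd, which removes the inhibitor malonyl-CoA, had no unadjusted p under 0.05 in that comparison.

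The acyl-CoA dehydrogenases open each turn of the spiral and differ in the chain length they prefer. Acadl, for long chains, was at 209.6, 225 and 266 FPKM in control, 170.1, 231 and 323 in treadmill, 252, 276 and 402 in catgut 1 and 253, 324 and 383 in catgut 2. Of the catgut 2 libraries 5 of 6, and of the catgut 1 libraries 3 of 6, lay above all controls. The log2 fold change was 0.49 with a standard error of 0.139 in catgut 2 against control (edgeR, p = 0.00368, adjusted p = 0.124, exact permutation p = 0.00649). In catgut 1 against control it was 0.38 with a standard error of 0.133 (p = 0.013, adjusted p = 0.405, exact permutation p = 0.0195).

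Acadvl, for very long chains, was at 114, 125 and 182 FPKM in control, 99.3, 149 and 228 in treadmill, 135, 164 and 247 in catgut 1 and 141, 199 and 274 in catgut 2. In catgut 2, 3 of 6 libraries lay above the highest control, which was again replicate 2, and in catgut 1 2 of 6 did. Against control Acadvl had a log2 fold change of 0.62 with a standard error of 0.204 in catgut 2 (edgeR, p = 0.0094, adjusted p = 0.168, exact permutation p = 0.0152). In catgut 1 it was 0.40 with a standard error of 0.18 (p = 0.0445, adjusted p = 0.49, exact permutation p = 0.0606), and 8 of the 12 fits without 1 library lost that call, those without control replicates 1, 4, 5 or 6 or catgut 1 replicates 1, 2, 4 or 5. Acadm, for medium chains, and Acads, for short chains, had no unadjusted p under 0.05 in any comparison.

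The electron transfer flavoprotein takes up the electrons of these dehydrogenases. Its beta subunit, Etfb, was at 110.2, 135 and 159 FPKM in control and 111, 194 and 303 in catgut 2, where 5 of 6 libraries lay above all controls and replicate 4 lay near the lowest. Etfb had a log2 fold change of 0.62 with a standard error of 0.231 (edgeR, p = 0.0182, adjusted p = 0.203, exact permutation p = 0.0281). The alpha subunit, Etfa, was at 151, 171 and 208 FPKM in control and 176, 223 and 259 in catgut 2 (edgeR log2 fold change 0.36, adjusted p = 0.233, exact permutation p = 0.0152). Etfdh, the dehydrogenase that passes the electrons on to ubiquinone, had no unadjusted p under 0.05 in any comparison.

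In the later steps of the spiral, Echs1 was at 50.4, 63.0 and 81.4 FPKM in control, 45.3, 59.0 and 81.6 in treadmill, 63.6, 76.7 and 92.1 in catgut 1 and 70.5, 83.6 and 103 in catgut 2. Of the catgut 2 libraries, 4 of 6 lay above all treadmill libraries and 4 of 6 above all controls. The log2 fold change was 0.43 with a standard error of 0.165 against treadmill (edgeR, p = 0.0218, adjusted p = 0.352, exact permutation p = 0.00866) and 0.35 against control (p = 0.0337, adjusted p = 0.255, exact permutation p = 0.0216). The call against treadmill was lost in 2 of 25 alternative fits. These were the fit without catgut 2 replicate 6, in which Echs1 was highest, and that with the slow fibre covariate. Acaa2 was at 63.4, 99.7 and 147 FPKM in control and 110.3, 168 and 224 in catgut 2, the largest log2 fold change of the 34 in that comparison at 0.65 with a standard error of 0.254 (edgeR, adjusted p = 0.228, exact permutation p = 0.0303). Hadh, which carries out the second dehydrogenation, had a log2 fold change of 0.35 there (edgeR, adjusted p = 0.292, exact permutation p = 0.0325), while Hadha and Hadhb, the subunits of the trifunctional protein, and Acat1 had no unadjusted p under 0.05.

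Of the auxiliary pair for unsaturated chains, Eci1, an isomerase, was at 69.2, 87.4 and 116 FPKM in control and 88.8, 127 and 168 in catgut 2, with 4 of 6 libraries above all controls (edgeR log2 fold change 0.56, standard error 0.199, adjusted p = 0.19, exact permutation p = 0.0216). Decr1 was at 38.6, 53.3 and 66.5 FPKM in control, 35.3, 53.2 and 85.0 in treadmill, 51.5, 65.1 and 96.3 in catgut 1 and 49.7, 65.8 and 102 in catgut 2. Its log2 fold change in catgut 2 against control was 0.41 with a standard error of 0.222 and had no unadjusted p under 0.05 (edgeR, p = 0.0854, exact permutation p = 0.0801).

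**Figure D2:**
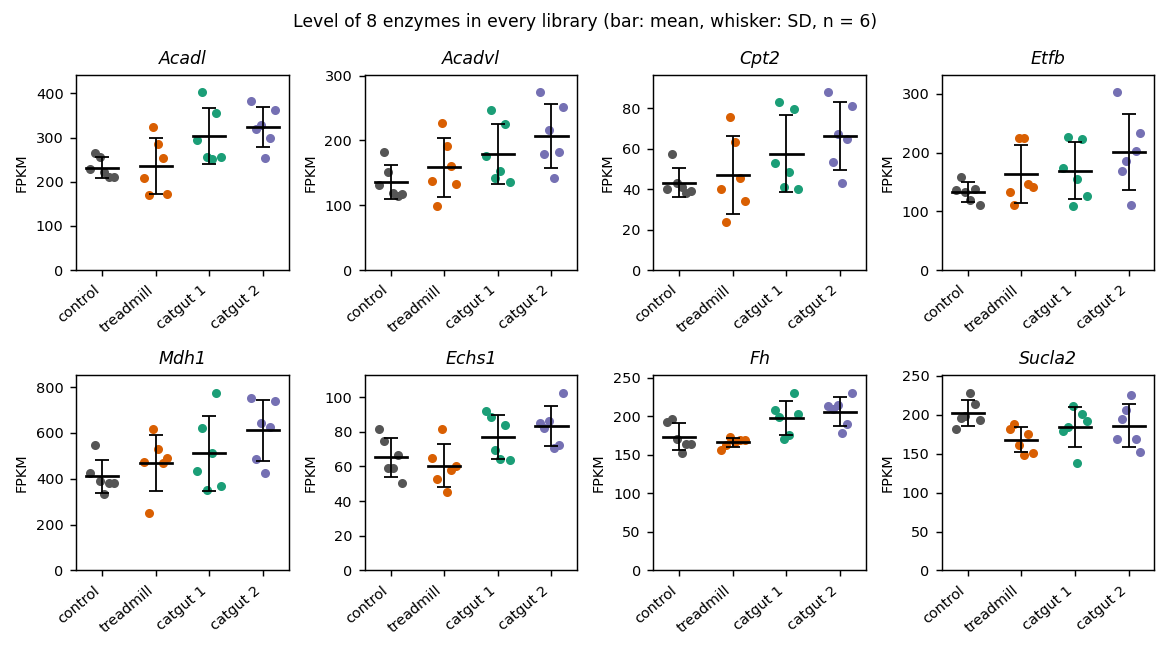
Each point is the FPKM of 1 library (y axis from 0) in the 4 groups (x axis) for 8 enzymes; the bar is the group mean and the whisker its SD over 6 libraries. For Fh and treadmill against catgut 2 the points do not overlap, whereas for Cpt2, Etfb and Mdh1 the trained groups spread widely and overlap the controls.

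The level of the fatty acid enzymes followed the slow fibre markers from library to library. Each gene's log2(FPKM + 1) was correlated with the log2 of the summed slow fibre markers plus 1 over the 24 libraries, for all 14766 tested genes other than the 6 markers, with permutation p-values adjusted over these genes by Benjamini-Hochberg. Of the 34 enzymes, 27 correlated positively at an adjusted p under 0.05, where 4.17% of all genes did, and 1, Pdha1, negatively, where 14.9% did. The 27 comprised 19 of the 20 fatty acid enzymes, all but Hadhb, and 8 of the 14 others. Pearson's r had a median of 0.71 over the fatty acid enzymes (0.50 to 0.83), 0.60 over the others and -0.21 over all genes, and Spearman's rho gave 28 positive and 1 negative calls.

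Mdh1 had the highest value (Pearson's r = 0.86, Spearman's rho = 0.85, n = 24), followed by Idh2 (r = 0.84, rho = 0.86), Eci1 (r = 0.83, rho = 0.89) and Acadvl (r = 0.83, rho = 0.86). For each of these 4 the permutation p was 1e-05 for both measures, the smallest that 100000 permutations can give, and the adjusted p was 0.00133 for r and 0.000802 for rho. Pdha1 had r = -0.52 (permutation p = 0.00912, adjusted p = 0.0485) and rho = -0.62 (permutation p = 0.0015, adjusted p = 0.015). Sucla2 (r = -0.46, adjusted p = 0.0945) and Idh3a (r = -0.44, adjusted p = 0.11) were also below 0 and did not pass, and Dlat had r = 0.08 (adjusted p = 0.829).

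With the 2 libraries farthest from the median slow fibre level left out, treadmill replicate 2 and catgut 1 replicate 6, 33 of the 34 enzymes kept the sign of r and the median over the fatty acid enzymes was 0.71. With the group means removed it was 0.70. Within single groups, each of 6 libraries, the median r of the fatty acid enzymes was 0.82 in control, 0.74 in treadmill, 0.74 in catgut 1 and 0.77 in catgut 2. Both quantities came from the same libraries and share their depth and scaling.

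**Figure D3:**
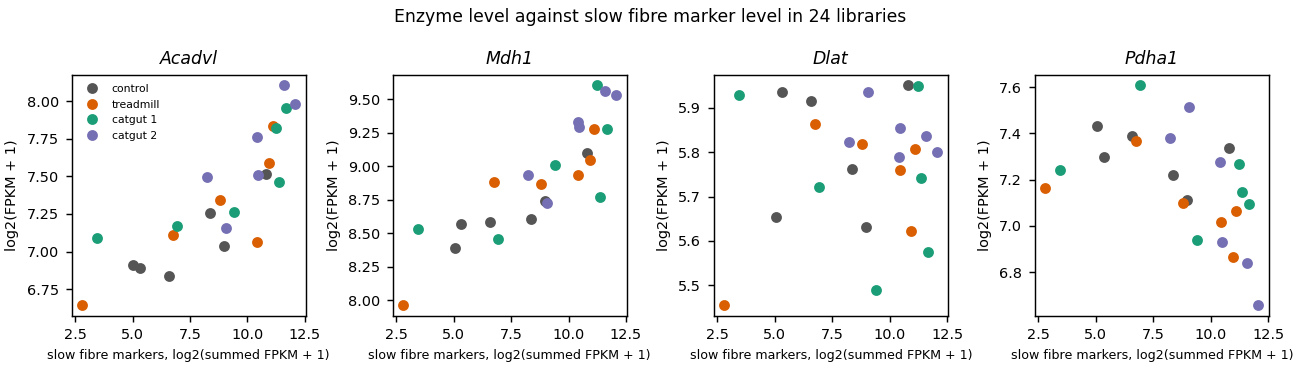
Each point is 1 of 24 libraries, coloured by group, with the log2 of the summed FPKM of 6 slow fibre markers plus 1 on the x axis and the log2(FPKM + 1) of an enzyme on the y axis. Acadvl and Mdh1 climb with the marker level, Dlat has no visible slope, and Pdha1 falls.

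**Figure D4:**
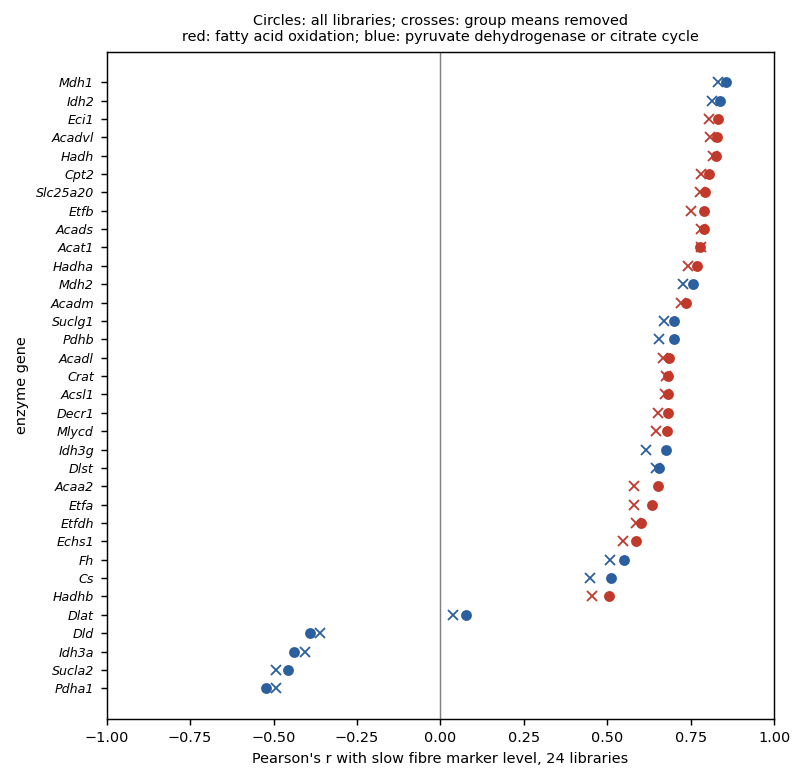
Pearson's r of each of the 34 enzymes (rows) with the slow fibre marker level over 24 libraries (x axis), as circles, and after removal of group means, as crosses; fatty acid oxidation is red, pyruvate dehydrogenase and the citrate cycle blue. All red circles lie between 0.50 and 0.83, and Pdha1, Sucla2, Idh3a and Dld lie below 0.

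Between the groups, all 6 slow fibre markers had a log2 fold change above 0 in each of the 6 comparisons and none had an unadjusted p under 0.05 (edgeR, median log2 fold change 1.21 in treadmill, 1.89 in catgut 1 and 2.04 in catgut 2 against control). Of 6 listed markers of fast glycolytic fibres, Myh4 was not among the genes measured and 5 were tested. Of these 5, Tnnt3 and Pvalb were lower in catgut 2 than in control (log2 fold changes -0.42 and -0.67, unadjusted p = 0.00347 and 0.0203 in edgeR). By the same rule 8.4% of all genes were lower. The slow fibre level of each library was also added to the fit as a covariate, an alternative chosen after the data had been seen. Here the level was the sum of log2(FPKM + 1) over the 6 markers, not the log2 of their sum. In catgut 2 against control the count went from 12 to 0 at an unadjusted p and from 4 to 0 by the ratio criterion. Over all genes, the calls higher went from 1187 to 1217 and from 520 to 351 by the same rules. The median log2 fold change of the 20 fatty acid enzymes went from 0.35 to -0.02. The count went from 2 to 0 in catgut 2 against treadmill, from 3 to 1 (Acadl) in catgut 1 against control, and from 0 to 1 (Fh) in catgut 1 against treadmill. In the same order, the calls higher over all genes went from 827 to 1118, from 706 to 501 and from 508 to 603. In treadmill against control the same 2 enzymes, Sucla2 and Dld, remained. The covariate and the group share part of their variation, so these fits do not separate them.

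The enzymes also moved with each other. With group means removed, the median Pearson's r over 24 libraries was 0.80 over the 190 pairs of fatty acid enzymes, 0.34 over the 91 pairs among the others and 0.54 over the 280 pairs between both sets, given as a description since all pairs share the same libraries. The closest pair was Acadvl and Cpt2 (r = 0.97), followed by Acadvl and Hadha (r = 0.96) and Cpt2 and Slc25a20 (r = 0.96). The most opposed pair was Idh3a and Eci1 (r = -0.68), followed by Mdh2 and Pdha1 (r = -0.67). Pdha1 of the pyruvate dehydrogenase complex was also opposed to Etfb (r = -0.66) and Idh2 (r = -0.66), and within the citrate cycle Sucla2 was opposed to Mdh2 (r = -0.63).

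A second list held 45 other genes of these pathways, of which 44 were tested, among them transporters, kinases and phosphatases of pyruvate dehydrogenase, respiratory complex II and ketone body enzymes. At an unadjusted p under 0.05, 1 was higher and 1 lower in treadmill against control, 2 and 0 in catgut 1 against treadmill, 7 and 0 in catgut 2 against treadmill, 2 and 0 in catgut 1 against control, 14 and 1 in catgut 2 against control, and 2 and 0 in catgut 2 against catgut 1. The shares of all genes called by the same rule, higher and lower, were 4.03% and 5.08%, 3.44% and 3.49%, 5.6% and 5.14%, 4.78% and 5.06%, 8.04% and 8.4%, and 1.87% and 1.39% in the same order, and a count of 1 or 2 among 44 genes is near or below most of them. The median log2 fold change of the list in catgut 2 against control was 0.20. Of 10 tested regulators of these genes, 8 had a log2 fold change above 0 in that comparison and 3 were higher at an unadjusted p under 0.05, where 8.04% of all genes were. The 3 were Ppargc1a, Ppara and Sirt3, and none passed the adjusted threshold (log2 fold changes 0.35, 0.52 and 0.41, adjusted p = 0.205, 0.275 and 0.268 in edgeR).

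One gene of the list passed an adjusted p of 0.05. Pdp1, the phosphatase that switches pyruvate dehydrogenase on, was at 16.1, 25.6 and 36.9 FPKM in control, 14.7, 18.6 and 24.5 in treadmill, 24.8, 30.0 and 40.3 in catgut 1 and 25.3, 34.1 and 38.0 in catgut 2. Every library of both catgut groups lay above every treadmill library, while the controls overlapped all groups. Such separation of catgut 2 from treadmill was seen for 0.582% of all genes tested, and the share for catgut 1 was not computed. Pdp1 rose in catgut 2 against treadmill by a log2 fold change of 0.78 with a standard error of 0.122 (edgeR, adjusted p = 0.023, exact permutation p = 0.00216). In catgut 1 against treadmill the log2 fold change was 0.72 with a standard error of 0.143 and did not pass (edgeR, adjusted p = 0.126, exact permutation p = 0.00216), although DESeq2 called it (adjusted p = 0.000716). The call in catgut 2 held in 16 of 25 alternative fits, DESeq2, limma and the slow fibre covariate among them. It was lost, with adjusted p-values of 0.0523 to 0.0813, without any 1 of treadmill replicates 1 and 4 and catgut 2 replicates 2, 3, 4, 5 and 6, and also with the replicate block and without the libraries with hepatocyte transcripts, and the log2 fold change stayed between 0.72 and 0.85 throughout.

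Cpt1a, the carnitine palmitoyltransferase isoform that prevails in liver, was low, at 2.74, 2.95 and 4.45 FPKM in control, 2.4, 3.0 and 3.7 in treadmill, 2.52, 3.43 and 4.18 in catgut 1 and 3.57, 4.21 and 5.31 in catgut 2. Of the catgut 2 libraries 3 of 6 lay above all controls and 4 of 6 above all treadmill libraries. Its log2 fold change was 0.44 against control, 0.47 against treadmill and 0.32 against catgut 1 (edgeR, adjusted p = 0.116, 0.171 and 1, exact permutation p = 0.0173, 0.0108 and 0.0455). Of the 10 genes of the list with a log2 fold change below 0 in catgut 2 against control, 1 had an unadjusted p under 0.05 in edgeR. This gene, Acadsb, which acts in the breakdown of branched-chain amino acids, was at 7.4, 16.9 and 36.4 FPKM in control and 5.65, 7.31 and 11.4 in catgut 2 (edgeR log2 fold change -1.22, adjusted p = 0.141, exact permutation p = 0.0519).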

How the data were processed

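Total RNA of the quadriceps was selected for poly(A), sequenced as paired ends and, per the labels, processed by the authors with HISAT2 2.0 and StringTie 1.3.0. The genome build is not given in the sources used here. The deposited table holds FPKM values, which the authors scaled to transcript length and mapped fragments, and whole-number counts for the 24 libraries. The commonest deposited counts above 0 were 4 and 8, so 1 count may not be 1 fragment. Per-sample columns left unused numbered 0, and 0 pairs of libraries were identical.

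Genes below 0.1 FPKM on average were left out, and the counts of the other 14772 were normalized by TMM and tested with edgeR 4.0.16 in R 4.3.3 (quasi-likelihood), with the groups compared fitted alone and p-values adjusted by the Benjamini-Hochberg method over all genes tested. The standard error was derived from the fold change and its F statistic. Single enzymes were also tested by a two-sided exact permutation of log2(FPKM + 1). The ratio criterion takes its fold of 1.5 and its p threshold from the study, and was applied here to group mean FPKM and the edgeR p. DESeq2 1.42.0 and limma 3.58.1 on log2(FPKM + 1) were run as alternatives, together with other filters, size factors, covariates and fits without 1 library.

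Members and lists were chosen with earlier results of these data known, and the rule that picks members by symbol uses no measured value. Enzymes described in full were, per comparison, up to 3 higher and 3 lower with the smallest unadjusted p under 0.05, the 3 with the smallest p over the 4 groups and the 3 with the highest and the lowest mean FPKM. Etfb, Etfa, Eci1, Acaa2, Hadh, Slc25a20, Pdha1, Idh3a, Pdp1, Cpt1a and Acadsb were given values in addition, after their values had been seen. Idh3B and LOC103693780 were also added to the genes tested after the data had been seen, and of these only Idh3B was given values. Coordinates are those of GRCr8 in RefSeq and were used for promoters only. Replicates were separate rats.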

Additional observations from a re-analysis of the deposited data

Results flagged for a closer look

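Of 136 groups of 6 libraries, 34 enzymes in 4 groups, 4 held a library whose distance from its nearest neighbour was large for the range of its group. Chance alone flags about 1 group in 20. Cs was lowest in treadmill replicate 2 with 191 FPKM, against 247 in the next library and 279 in the highest. Dlst was lowest in the same library with 67.0 FPKM, against 107 in the next and 122 in the highest. Dld was lowest in catgut 1 replicate 4 with 42.8 FPKM, against 66.4 in the next and 76.2 in the highest. Cpt2 was highest in control replicate 2 with 57.3 FPKM, against 43.0 in the next and 38.1 in the lowest. Treadmill replicate 2 had the lowest slow fibre marker level of all libraries and control replicate 2 the highest of the controls, and their part in these values was not tested.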

How the results depend on the processing

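All counts here are of the 34 enzymes at an unadjusted p under 0.05 unless stated. With 1 library left out they ran from 2 to 9 in treadmill against control, 0 to 2 in catgut 1 against treadmill, 0 to 8 in catgut 2 against treadmill, 1 to 10 in catgut 1 against control, 5 to 19 in catgut 2 against control and 1 to 7 over all 4 groups. Counts at an adjusted p under 0.05 ran from 0 to 2 in catgut 2 against control, and those by the ratio criterion from 0 to 6 there and 0 to 2 in catgut 2 against treadmill. The calls over all genes moved too. In catgut 2 against control without catgut 2 replicate 4, the fit that gave the 19 and the 2, those at an adjusted p went from 75 to 492. DESeq2 gave 5 in catgut 2 against treadmill and 7 in catgut 1 against control, and at an adjusted p 1 in treadmill against control and 3 in catgut 2 against control. Over all genes DESeq2 called 112 at an adjusted p in treadmill against control and 695 in catgut 2 against control. Limma with either pseudocount (1 or 0.1) gave 2 in catgut 1 against treadmill, 8 in catgut 2 against treadmill and 7 over all 4 groups. A single fit over the 4 groups gave 5 in catgut 2 against treadmill and 1 in catgut 1 against control. With the slow fibre covariate the counts were 1, 0, 1 and 0 in catgut 1 against treadmill, catgut 2 against treadmill, catgut 1 against control and catgut 2 against control, 0 by the ratio criterion in the last, and 1 over all 4 groups. Without the 3 libraries with hepatocyte transcripts they were 7 in treadmill against control, 1 in catgut 1 against treadmill, 4 in catgut 2 against treadmill, 7 in catgut 1 against control and 7 over all 4 groups. The slow fibre covariate and the omission of these libraries were chosen after seeing the data. The cause of these shifts was not tested. Replicate numbers did not pair the samples: correlations of same-numbered libraries' deviations ran from -0.447 to 0.273, 8 of 36 were over 0.1, and 2 of 24 libraries were closest to their own number. With the replicate block the count was 7 in catgut 1 against control and 1 over all 4 groups, and stayed within 1.5 times elsewhere.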
